A study of Homo sapiens with 40 samples.

Results

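The 100 kb bins described here had a negative compartment signal in control A549 cells and a positive one in SETDB1-knockout A549 cells, with a value in every column of the deposited Hi-C table. They numbered 1551 of the 26496 bins with a value in every column (5.85%, 95% Wilson interval 5.58% to 6.14%) and made up 13.1% of the 11859 bins that were negative in control. Negative bins are called B and positive bins A. The deposited table does not state how the sign was oriented, and the marks given below (H3K4me3 and H3K27ac peaks dense in positive bins) match that naming. The remaining bins fell into 10308 that were B in both genotypes, 13064 that were A in both and 1573 that went from A to B.

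A549 is an established human lung adenocarcinoma line that carries the K-RAS G12S allele in both groups. The control group is labelled only as control, with no word on a control guide or plasmid, and in the knockout group the SETDB1 gene was disrupted by CRISPR/Cas9 with a guide cloned into the PX458 plasmid. Whether the knockout was 1 clone or a pool is not given in the sources used here, and no rescue group was used. Each genotype had 2 Hi-C libraries, 2 ChIP-seq libraries per antibody and 3 RNA-seq libraries. The Hi-C table gives a signal for each replicate and each genotype, whereas each of the 5 antibodies (H3K9me3, H3K27me3, H3K27ac, H3K4me3 and CTCF) and the TADs came as 1 list per genotype. Differences in peaks and TADs therefore have no replicate error and no test, and the intervals given cover counting error only. These intervals treat bins as independent, which neighbouring bins are not, so they are too narrow. Nothing in the labels says whether replicates were separate cultures.

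Hi-C separates chromosomes into compartments: A chromatin is gene-rich and active, and B chromatin is compact, silent and often held at the nuclear lamina. H3K9me3 marks constitutive heterochromatin, and SETDB1 is one of the enzymes that write it, recruited by KRAB zinc-finger proteins through TRIM28 to retroelements and to the clustered zinc-finger genes themselves. H3K27me3 is the Polycomb mark of facultative heterochromatin, H3K4me3 marks promoters, H3K27ac marks active promoters and enhancers, and CTCF is the DNA-binding protein at which cohesin loops and many borders of topologically associating domains (TADs) are anchored.

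As a check of the labels, SETDB1 was present at 36.4, 39.7 and 38.4 CPM (reads of the gene scaled to library total) in the control RNA-seq libraries and at 23.7, 21.6 and 21.0 CPM in the knockout libraries. The knockout libraries all lay below the control libraries but kept SETDB1 reads, and the position of the lesion in the gene is not given. The epithelial keratin genes KRT8 and KRT18 were above 755 CPM in every library, AKR1B10 (an aldo-keto reductase abundant in A549) was at or above 2641 CPM, and the leukocyte gene PTPRC stayed at or below 0.055 CPM. Other epithelial genes were far lower, with means in control and knockout of 26.8 and 52.8 CPM for CDH1 and 3.97 and 10.8 CPM for EPCAM. The fibroblast gene COL1A1 had 3.07 and 3.87 CPM, near EPCAM in control. The alveolar type 2 genes SFTPB, SFTPC and NAPSA were low, with means of 0.404, 0.0800 and 0.907 CPM in control and 0.232, 0.116 and 1.34 CPM in knockout. The genotypes differed in the epithelial genes, with means of 2246 and 6647 CPM for KRT8, 769.8 and 2604 CPM for KRT18 and 4790.2 and 2663 CPM for AKR1B10 in control and knockout, without overlap between their libraries. Library totals ran from 18065062 to 48364919 counts.

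In the switching bins the control signal had a median of -0.34 and the knockout signal a median of 0.24. By replicate the medians were -0.34 and -0.35 in the control libraries and 0.24 and 0.23 in the knockout libraries, so the replicates of a genotype lay close together. The median difference between genotypes was 0.68, against a median absolute difference of 0.045 between the control replicates and 0.043 between the knockout replicates. The bins were chosen by the control and knockout columns of these signals, so the values describe them and no test was made. In a population of cells, a larger share of cells with a stretch in A and a stronger change in every cell cannot be told apart.

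Not every bin was far from 0. Of the 1551 bins, 1328 (85.6%) had the sign in all 4 replicate columns. Asking that control and knockout signals each exceed, in size, their lowest 10% of values left 775. When each column was instead centred on its own median and scaled, 1468 bins switched, of which 1026 were among the 1551 (66.2% of the one list and 69.9% of the other). On chromosome 6, the bin just inside the control threshold, chr6:48600001-48700000, had a control signal of -8.26e-05, from -0.046 and 0.031 in the replicates. Just outside it, chr4:90500001-90600000 had a control signal of 0.00051 from replicates of -0.040 and 0.026, so these neighbours of the threshold differed by less than their replicates. At the knockout threshold, chr14:43400001-43500000 was inside with a signal of 4.37e-05 and chr4:62700001-62800000 was outside with -0.00028.

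**Figure D1:**
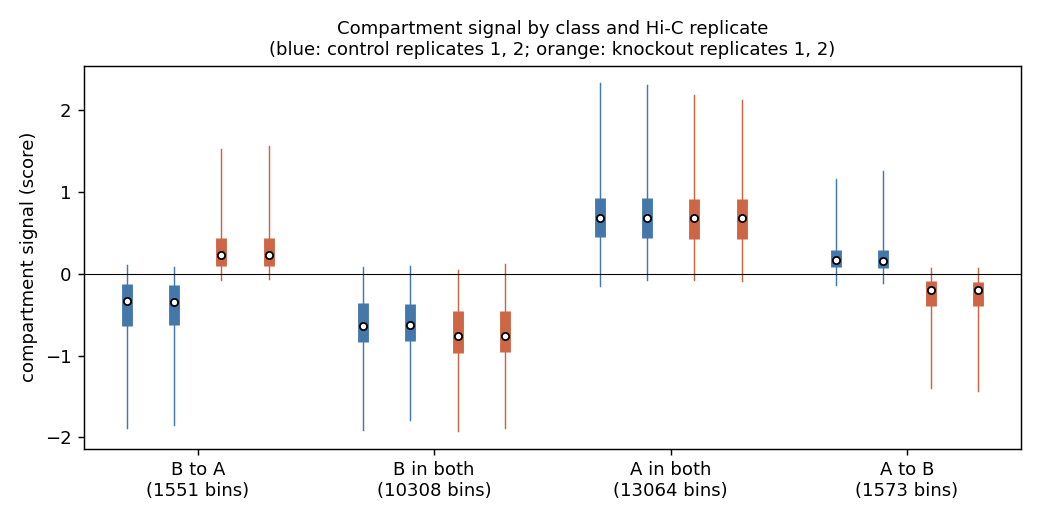
Compartment signal (deposited score, vertical axis) of the bins of each class in each Hi-C replicate, 2 control (blue) and 2 knockout (orange). Thin lines run from the lowest to the highest bin, thick bars from the lower to the upper quartile, and white points are medians; in the 1551 B to A bins the replicate medians are -0.34 and -0.35 in control and 0.24 and 0.23 in knockout, whereas the B in both bins have medians near -0.63 in control and -0.76 in knockout.

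The switching bins formed 419 runs of adjacent bins. Most runs were short, with a median of 2 bins and 176 runs of a single bin, yet most of the bins lay in long runs: the 83 runs of at least 5 bins held 947 bins (61.1%), and the 35 runs of at least 10 bins held 635 (40.9%). Long runs lay deeper in control B than short ones. The median control signal was -0.08 in single bins and -0.59 in runs of 10 or more bins, and the median knockout signal was 0.08 and 0.36. Runs of 10 or more bins also carried less H3K27me3 in control (mean coverage 6.95%, against 15.1% in single bins) and fewer control H3K4me3 peaks (0.753 per bin, against 1.70), while control H3K9me3 coverage was alike (16.8% and 17.8%).

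Run ends touched both kinds of neighbour about equally. Of 838 ends, 393 were next to a bin that was A in both genotypes, 387 next to a bin that was B in both, 6 next to an A to B bin, 50 next to a bin without a value and 2 at a chromosome end. Runs with A on one side and B on the other numbered 192, runs with A on both sides 92 and runs with B on both sides 90, the longest of them 42, 39 and 22 bins. A control A bin was the direct neighbour of 23.9% of switching bins and of 12.1% of the bins that stayed B.

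All 23 chromosomes in the table held such bins, very unevenly. Chromosome 4 alone held 308 (19.9% of them), which was 36.1% of its control B bins, and chromosome 19 held 62, which was 36.7% of its control B bins. On the other chromosomes the share of control B bins that switched ran from 3.60% on chromosome 21 to 89 of 446 bins on chromosome 13. The median difference between knockout and control over all bins of chromosome 4 was -0.11, beside -0.04 over all bins of the table. With each chromosome's median difference subtracted, an alternative chosen after the data were seen, 1787 bins switched, of which 1541 were among the 1551 (99.4% of the one list and 86.2% of the other), and chromosome 4 held 357.

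The chromosomes differed in what the bins carried in control. On chromosome 19, 59 of the 62 bins were covered by H3K9me3 peaks over at least 50% of their length in control. Such coverage was common there: 135 of its 169 control B bins had it, and 59 of these 135 (43.7%) switched. Mean coverage of the 62 bins was 89.3% in control and 3.45% in knockout. On chromosome 4, 214 of the 308 bins had under 5% of control coverage, against 599 of all 1551 switching bins (38.6%). The share among chromosome 4 bins that stayed B is not given here. Mean coverage of the 308 bins was 4.93% in control and 0.695% in knockout. The 89 bins of chromosome 13 resembled those of chromosome 4, with 4.53% and 0.441%. Only on chromosome 21, with 5 bins, was mean H3K9me3 coverage of the switching bins higher in knockout, 38.3% against 19.7%. On chromosome X, 103 bins had 7.44% in control and 5.09% in knockout, with H3K27me3 coverage of 5.22% in control and 18.8% in knockout.

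**Figure D2:**
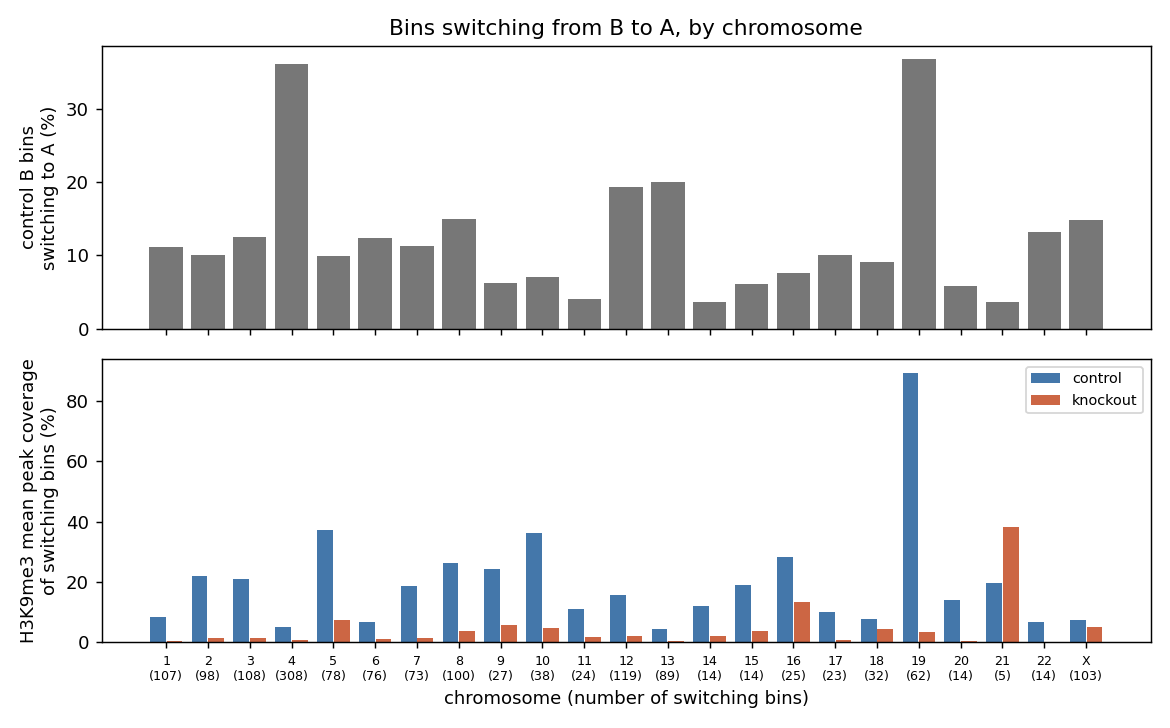
Upper panel: percent of control B bins of each chromosome that switched to A. Lower panel: mean H3K9me3 peak coverage of those bins in control (blue) and knockout (orange), in percent of bin length, with the number of switching bins in brackets under each chromosome; chromosomes 4 and 19 stand highest in the upper panel at 36.1% and 36.7%, while their control H3K9me3 coverage is 4.93% and 89.3%.

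The longest run was chr13:81100001-85300000 (hg19), 42 bins between an A stretch and a B stretch. Its mean signal was -0.68 and -0.64 in the control replicates and 0.53 and 0.54 in the knockout replicates. H3K9me3 peaks covered 3.49% of it in control and 0.121% in knockout, H3K4me3 peaks numbered 29 in control and 112 in knockout, H3K27ac peaks 6 and 36, and CTCF peaks 3 and 9. Little H3K9me3 was called over this run in either genotype, and the 50 windows of 20 kb beyond its B end had 4.26% in control and 67.3% in knockout.

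Chromosome 4 held 3 of the 6 longest runs. The longest there, chr4:115300001-119200000, spanned 39 bins between A bins and had mean signals of -0.73 and -0.72 in control and 0.34 and 0.35 in knockout. H3K9me3 covered 1.26% in control and 0.414% in knockout, with 14 H3K4me3 peaks in control and 98 in knockout, and CTCF peaks numbered 0 and 16. The run at chr4:90600001-93600000, 30 bins between A bins, differed from it in H3K27me3, which covered 18.1% in control and 4.53% in knockout. The third, chr4:178500001-181500000, had 28 H3K4me3 peaks in control and 114 in knockout. All 3 gained H3K4me3 and CTCF peaks over stretches with under 4% of control H3K9me3 coverage.

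The other 2 of the 6 longest runs had more control H3K9me3 and fewer CTCF peaks in knockout. On chromosome 8 the longest run, chr8:114500001-117500000 with 30 bins, had H3K9me3 coverage of 20.7% in control and 2.62% in knockout, 10 and 173 H3K4me3 peaks, and 33 and 14 CTCF peaks. On chromosome 3, chr3:93900001-96700000 with 28 bins had H3K9me3 coverage of 26.5% and 0.415%, 6 and 130 H3K4me3 peaks, and 41 and 17 CTCF peaks. These runs and those of chromosome 4 thus went opposite ways in CTCF and the same way in H3K4me3.

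Chromosome 19, known for its clusters of KRAB zinc-finger genes, held its bins in 9 runs, the longest of 21 bins at chr19:52200001-54300000. The mean signal there was -1.14 and -1.18 in the control replicates and 0.24 and 0.24 in the knockout replicates. H3K9me3 peaks covered 95.7% of the run in control and 6.11% in knockout, while H3K27ac peaks numbered 24 and 116, H3K4me3 peaks 42 and 167, and CTCF peaks 50 and 31. H3K27me3 coverage was 2.36% in control and 19.8% in knockout. In knockout it covered 67.8% of the 22 windows of 20 kb with a knockout H3K9me3 peak and 7.08% of the other 83. The next run, chr19:36700001-38400000 with 17 bins, had H3K9me3 over 91.4% in control and 0.976% in knockout, 37 and 109 H3K4me3 peaks, 38 and 18 CTCF peaks, and no such H3K27me3 (4.59% and 3.10%). Genes were not placed in bins here.

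**Figure D3:**
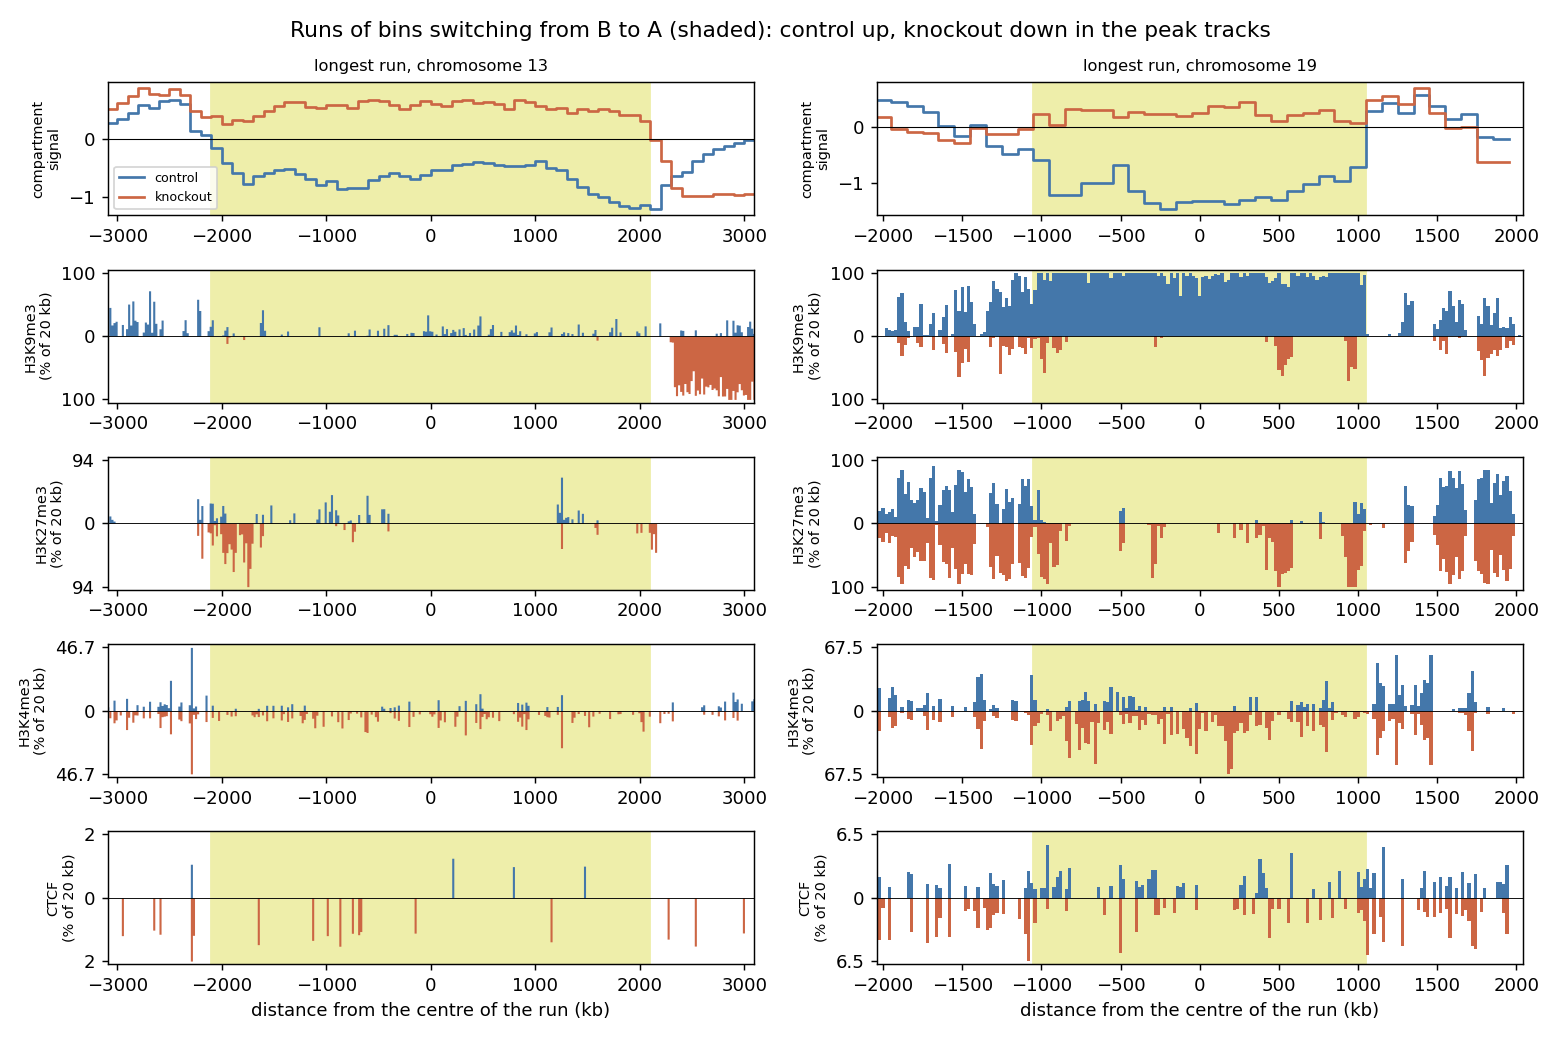
The longest run of all (chromosome 13, left) and the longest of chromosome 19 (right), shaded, by distance from the run's centre in kb: compartment signal in the top row, then peak coverage of 20 kb windows in percent for H3K9me3, H3K27me3, H3K4me3 and CTCF, control (blue) drawn upward and knockout (orange) downward. Control H3K9me3 covers 95.7% of the chromosome 19 run and 3.49% of the chromosome 13 run, and the B flank of the chromosome 13 run is covered over 67.3% in knockout and 4.26% in control.

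Switching bins and B bins that stayed B had like H3K9me3 coverage in control and very different coverage in knockout. Mean peak coverage in control was 17.5% in switching bins and 15.3% in bins that stayed B. In knockout it was 2.51% in switching bins and 56.2% in bins that stayed B. Called by a difference of at least 5 percentage points of coverage, H3K9me3 was lower in knockout in 872 switching bins (56.2%), against 37.4% of all bins and 19.9% of control B bins. It was higher in 54 (3.48%), against 29.7% of all bins and 63.5% of control B bins. No knockout H3K9me3 peak touched 1125 of the 1551 switching bins (72.5%), whereas 10.4% of bins that stayed B were free of it.

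Control H3K9me3 coverage of at least 20% was about as frequent in switching bins as in bins that stayed B, whereas coverage of at least 50% was more frequent. The latter was found in 9.48% of switching bins and 6.01% of bins that stayed B. Coverage of at least 20% in control was found in 419 switching bins and 2801 bins that stayed B (27.2% of the latter), while in knockout it was found in 65 switching bins (4.19%) and in 71.4% of bins that stayed B. Among control B bins with at least 50% control coverage, 147 of 766 (19.2%) switched, of which 59 were on chromosome 19. Off chromosome 19 the figure was 88 of 631 (13.9%), beside 12.7% of control B bins under 50% coverage. Within the bins with under 5% control coverage, knockout coverage was 1.17% in the 599 that switched and 55.2% in the 3795 that stayed B.

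The contrast was present at every depth of the control signal. Of control B bins with a signal between -0.25 and 0, 27.2% switched, against 7.67% of those below -1. In each of the 5 windows of control signal, knockout H3K9me3 coverage was between 2.06% and 4.24% in switching bins and between 19.5% and 84.4% in bins that stayed B. In the lowest window the 77 switching bins had 60.1% in control and 3.88% in knockout, while the 927 that stayed B had 24.7% and 84.4%. The deepest switching bins were thus the ones richest in control H3K9me3. Of these 77, 33 lay on chromosome 19 and 29 on chromosome 8.

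Among switching bins the control signal and control H3K9me3 coverage were nearly unrelated (Spearman's rho -0.04 across 1551 bins, a description since neighbouring bins share a run and the same libraries). With the other marks in control, rho was 0.40 for H3K4me3, 0.39 for H3K27me3, 0.36 for H3K27ac and -0.07 for CTCF. The bins with the largest differences of signal showed both extremes. At chr8:47200001-47300000, beside the centromere, the replicates were -1.49 and -1.47 in control and 0.73 and 0.76 in knockout, and H3K9me3 covered 93.8% in control and 0 in knockout. At chrX:115400001-115500000 they were -0.95 and -0.91 in control and 1.13 and 1.26 in knockout, with H3K9me3 at 0 in control and 3.23% in knockout and with 5 H3K27ac peaks where control had 0. The bin chr4:100001-200000, near the start of the chromosome, had 85.2% and 0.

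A few bins went against the rest. At chr21:37000001-37100000, H3K9me3 coverage was 8.08% in control and 68.7% in knockout while the signal was -0.04 in control and 0.06 in knockout, and the control replicates, 0.0028 and -0.069, differed in sign. At chrX:116900001-117000000 the signal was -0.70 in control and 0.21 in knockout, with the replicates alike, and coverage was 1.09% and 39.4% for H3K9me3 and 0 and 73.2% for H3K27me3. A second bin of that stretch, chrX:116600001-116700000, had 1.27% and 38.7% H3K9me3 and 0 and 60.3% H3K27me3. These bins had no H3K27ac or H3K4me3 peak in either genotype.

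**Figure D4:**
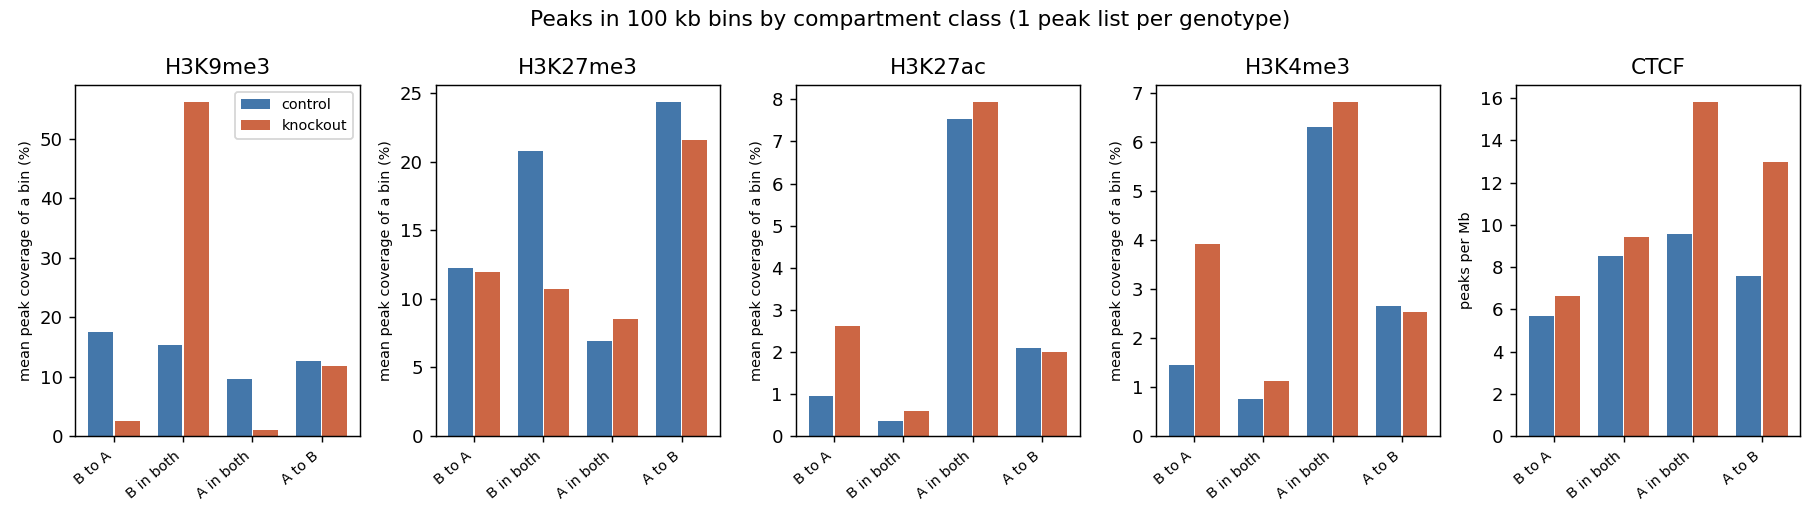
Mean peak coverage of a 100 kb bin (percent of its length; for CTCF, peaks per Mb) in control (blue) and knockout (orange) for bins that switched from B to A, stayed B, stayed A or went from A to B, 1 peak list per genotype and so without error bars. Switching bins and bins that stayed B have like H3K9me3 coverage in control (17.5% and 15.3%) and unlike coverage in knockout (2.51% and 56.2%).

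H3K27me3 was higher in some switching bins and lower in others, with nearly the same mean. Mean coverage of switching bins was 12.3% in control and 11.99% in knockout, whereas in bins that stayed B it was 20.8% and 10.7%. The order within switching bins turned with the margin on signal size (10.9% and 11.6%) and with only the wider peaks (9.65% and 9.75%). By the call of 5 points, 328 switching bins (21.1%) were higher in knockout, against 13.8% of all bins, and 347 (22.4%) were lower, against 20.3% of all bins; among control B bins the shares were 10.9% and 36.3%. Where control signal was below -1, switching bins had 0.399% in control and 9.95% in knockout, and where it was between -0.25 and 0 they had 16.5% and 11.9%. Of the 5197 control H3K27me3 peaks in switching bins, 50.5% met a knockout peak, against 37.7% in bins that stayed B. Control-only H3K27me3 peaks lay over knockout H3K9me3 in 0.855% of cases in switching bins and in 74.8% in bins that stayed B.

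H3K4me3, the promoter mark, was the mark most widely gained. Peaks in switching bins numbered 1756 in control and 5221 in knockout, and mean coverage was 1.45% and 3.92%. Bins with at least 1 peak made up 55.6% in control and 93.5% in knockout, near the 92.6% of bins that were A in both. At least 1 more peak in knockout was found in 1228 switching bins (79.2%), against 35.2% of all bins and 31.7% of control B bins, and fewer in 59, against 15.7% of all bins and 10.3% of control B bins. The knockout list is the longer one, yet switching bins held 3.09% of the control list and 7.52% of the knockout list. Coverage stayed below that of bins that were A in both, 6.31% in control and 6.82% in knockout.

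H3K27ac, the mark of active promoters and enhancers, was gained in fewer bins. Peaks numbered 955 in control and 2420 in knockout, in 29.3% and 62.5% of switching bins. At least 1 more peak was found in 788 bins (50.8%), against 26.9% of all bins and 18.2% of control B bins, and fewer in 64 (4.13%), against 17.3% of all bins and 4.45% of control B bins. Both marks were gained in 697 bins (44.9%), against 16.2% of all bins and 13.3% of control B bins. Neither mark was gained in 232 switching bins (14.96%), against 54.1% of all bins and 63.4% of control B bins.

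The shares of bins that gained these marks were also taken with and without a called loss of H3K9me3. The sets compared against contain the switching bins themselves, which were 872 of the 2358 control B bins with lower H3K9me3. Among the 872 switching bins with lower H3K9me3, 81.0% gained H3K4me3 peaks, against 47.1% of all bins with lower H3K9me3 and 63.4% of such control B bins, and 56.2% gained H3K27ac peaks, against 37.5% and 44.4%. Among the other 679 switching bins 76.9% gained H3K4me3 peaks, against 28.2% of all bins without that loss and 23.8% of such control B bins, and 43.9% gained H3K27ac peaks, against 20.6% and 11.6%. These 679 include all 599 switching bins with under 5% control coverage, which had too little to be called lower. They are therefore mostly bins with little H3K9me3 to lose, and the comparison sets include bins of that kind too. The sets differ in gain of H3K9me3, however. The 9501 control B bins without the loss include 7536 with H3K9me3 called higher in knockout, against 54 such bins among those that switched. The contrast thus sets switching bins with little H3K9me3 change mostly beside bins that gained H3K9me3. Across switching bins, the difference of signal had a Spearman's rho of 0.39 with the difference of H3K4me3 and 0.27 with that of H3K27me3. It was 0.18 with that of H3K27ac, -0.18 with that of CTCF and -0.08 with that of H3K9me3, again only as a description.

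Most knockout H3K4me3 peaks in switching bins were at sites without a control peak. Of 5221, 29.6% overlapped a control peak by at least 1 bp, and the 3676 others were narrower, with a median width of 741 bp against 1373 bp for those found in both. A knockout H3K27ac peak lay over 24.6% of the knockout-only H3K4me3 peaks and over 66.9% of those found in both. Control H3K9me3 had covered 24.8% of the knockout-only sites and 24.1% of the shared ones. The 1656 knockout-only H3K27ac peaks, in contrast, mostly coincided with H3K4me3, at 77.4%. Control peaks were largely kept: 90.1% of control H3K4me3 peaks and 83.9% of control H3K27ac peaks had a knockout peak. Bins that were A in both kept 87.0% and 73.1%, and bins that stayed B 75.3% and 71.3%. In bins that stayed B, 74.6% of knockout-only H3K27ac peaks coincided with H3K4me3, near the share in switching bins. Control H3K9me3 had covered 23.2% of knockout-only H3K4me3 sites there and 14.6% of shared ones, and 49.8% of knockout H3K4me3 peaks overlapped a control peak.

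The 3 bins that gained most H3K27ac peaks all lay on chromosome 19, led by chr19:38100001-38200000 with 1 peak in control and 15 in knockout, where H3K9me3 coverage was 100% and 0. The most H3K4me3 peaks were gained at chr2:82900001-83000000, 0 and 16, with 0 H3K27ac peaks in either genotype and H3K9me3 coverage of 42.4% and 0. A neighbour on chromosome 2, chr2:82700001-82800000, had 0 and 12 H3K4me3 peaks and 0 and 1 H3K27ac peaks.

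In all 35 runs of at least 10 bins, H3K4me3 and H3K27ac peaks were more numerous in knockout. Stretches of that length that stayed B were not counted for comparison, so these counts are not shown to be particular to switching runs. Bins that stayed B also had more peaks in knockout. H3K4me3 there was 6.52 and 9.87 peaks per Mb in control and knockout, and H3K27ac 2.43 and 3.83. H3K9me3 coverage was lower in knockout in 33 of them and higher in 2. H3K27me3 coverage was higher in 21 and lower in 14, and CTCF peaks were more numerous in 22 and fewer in 11, or 21 and 14 with the knockout list scaled to the number of control peaks. H3K27me3 and CTCF thus had no shared direction over the long runs.

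CTCF was sparser in switching bins than in bins that stayed B or A. Peaks numbered 878 in control and 1029 in knockout, or 5.66 and 6.63 per Mb, against 8.52 and 9.43 in bins that stayed B and 9.57 and 15.8 in bins that were A in both. The knockout CTCF list is the longer one, and with it scaled to the number of control peaks the knockout density becomes 4.60 per Mb, below control, so the direction of this difference depends on the scaling. Switching bins held 3.68% of the control list and 2.99% of the knockout list. At least 1 more peak was found in 431 bins (27.8%), under the 38.7% of all bins and near the 28.8% of control B bins, and fewer in 271 (17.5%), against 14.7% of all bins and 22.0% of control B bins. Of the 878 control peaks, 260 (29.6%) overlapped a knockout peak, against 25.8% in bins that stayed B and 77.1% in bins that were A in both.

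The balance of CTCF loss and gain differed with control H3K9me3. In the 1132 switching bins with under 20% control H3K9me3 coverage, CTCF peaks numbered 402 in control and 640 in knockout. In the 419 bins with at least 20%, they numbered 476 and 389. The bins that stayed B had 5166 and 6378 peaks below 20% and 3612 and 3342 above it. With the knockout list scaled as above, a count added after the data were seen, the knockout numbers become 444 and 270 in switching bins and 4424 and 2318 in bins that stayed B, so that only switching bins below 20% keep more peaks than control. Of the 618 control-only CTCF peaks in switching bins, 49.0% lay on control H3K9me3 peaks, whereas 16.9% of those found in both did. The same contrast was present elsewhere, with 31.4% and 9.83% in bins that stayed B and 12.9% and 2.88% in bins that were A in both.

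Runs of different length also differed. CTCF peaks per bin were 0.688 in control and 1.12 in knockout in single bins, and 0.529 and 0.450 in runs of 10 or more bins. Scaled to the control list, the knockout values become 0.780 and 0.312, which keeps both directions, while runs of 2 to 9 bins turn from more to fewer peaks. Switching bins of chromosome 4, nearly free of CTCF in control, had 0.05 and 0.30 per bin. Those of chromosomes X (0.05 and 0.32) and 13 (0.08 and 0.30) were alike, while those of chromosome 19 had 2.02 and 1.52 and those of chromosome 3 had 1.01 and 0.491. Bin by bin, the most CTCF peaks were gained at chr5:140500001-140600000, 0 and 9, where H3K9me3 covered 95.8% and 0 and H3K4me3 peaks numbered 7 and 15. The bins chr7:64000001-64100000 and chr8:47300001-47400000 followed, with 6 and 4 CTCF peaks against 0 in control and with control H3K9me3 coverage of 97.4% and 96.5% that was 0 in knockout. These bins went against the pattern of CTCF loss in bins rich in control H3K9me3.

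TAD edges were denser within switching bins in knockout than in control. The lists placed 240 control and 297 knockout edges there, or 1.55 and 1.91 per Mb, against 1.42 and 1.51 in bins that stayed B and 3.41 and 3.41 in bins that were A in both. Of the 297 knockout edges, 79 had no control edge within 20 kb and 73.4% had one, whereas 87.6% had one in bins that stayed B and 95.8% in bins that were A in both. The TADs come from the same Hi-C libraries that chose the bins, so these values are not independent of the choice. A CTCF peak lay within 20 kb of 34.6% of the control edges and 56.6% of the knockout edges, a difference also seen over all edges (50.5% and 68.0%), where the longer knockout CTCF list enters too.

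Ends of the runs had a TAD edge nearby slightly more often than all borders between bins, and about as often as borders inside stretches that stayed A. A control TAD edge lay within 20 kb of 136 of 786 run ends between bins with values (17.3%), against 13.9% of all borders between bins, and a knockout edge within 20 kb of 145 (18.4%), against 14.2%. Borders between A and B of the control genome had one more often, 27.2% and 27.9%. Borders inside runs had an edge in 4.59% in control and 7.77% in knockout, beside 6.10% and 6.52% inside stretches that stayed B. Inside stretches that stayed A the shares were 18.2% and 17.9%. TADs that consisted wholly of switching bins made up 0.915% of the 6118 control TADs and 1.61% of the 6283 knockout TADs, and the longest TAD with at least 50% of its length in such bins was 4380 kb in control and 2140 kb in knockout.

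Knockout H3K9me3 coverage differed across run ends next to a bin that stayed B. At the 78 ends of runs of at least 5 bins next to B, knockout H3K9me3 coverage was 3.59% in the first 100 kb inside, 9.06% in the first 100 kb outside and 28.2% between 400 and 500 kb outside. Control coverage was level across the same places, 15.5%, 15.7% and 14.1%. Knockout coverage was thus higher with distance from the run, and the flanking bins nearest to a run had less of it in knockout than in control. Ends were sorted by the bin touching the run, and the class of bins farther out is not given here. Even at 400 to 500 kb, knockout coverage was below the 56.2% mean of all bins that stayed B. Knockout H3K27me3 coverage was 18.1% in the first 100 kb outside, against 10.7% in control there and 10.7% in knockout inside. At the 79 ends next to A, control H3K9me3 was 12.3% outside and 16.5% inside and knockout H3K9me3 0.234% and 1.39%, with H3K4me3 coverage of 4.73% outside and 1.73% inside in control and 6.58% and 3.27% in knockout.

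**Figure D5:**
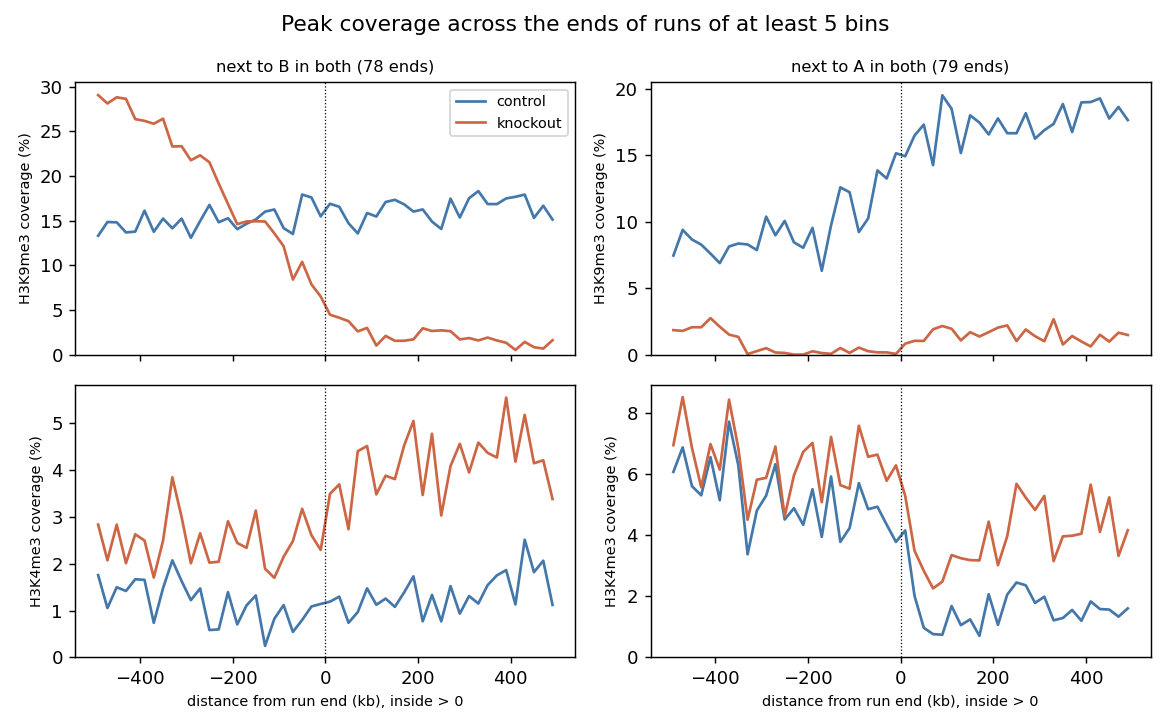
Mean peak coverage (percent of 20 kb windows, vertical axis) of H3K9me3 (top) and H3K4me3 (bottom) by distance from the ends of runs of at least 5 bins, in kb with the inside of the run at positive distances, in control (blue) and knockout (orange), for 78 ends next to B (left) and 79 next to A (right). Knockout H3K9me3 is 3.59% in the first 100 kb inside and 28.2% between 400 and 500 kb outside on the B side, while control is level at 15.5% and 14.1%.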

How the data were processed

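All 40 samples were grouped by their labels as control or SETDB1 knockout. The knockout H3K4me3 libraries were assigned to their mark by the sample description, because a mark label lacked a digit. The submitters' processing notes name STAR 2.6.1c, edgeR 3.30.0, Bowtie2 2.2.3, SAMtools 1.5, Picard and MACS2, and the build hg19. The compartment table deposited by the authors holds a signed score per 100 kb bin for each replicate and genotype; its method and sign orientation are not given in the sources used here. Deposited peak lists hold positions only, 1 per antibody and genotype, and how libraries were pooled is not given in the sources used here. TAD edges lie on a 20 kb grid. The gene table deposited by the authors holds counts per gene, from which CPM were computed on total counts. No per-sample column went unmapped (0 columns).

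Bins were used if every column had a value. Coverage is the merged peak length per bin length. H3K27ac, H3K4me3 and CTCF peaks were counted in the bin of their midpoint, and overlaps needed at least 1 bp. A bin was called changed at 5 points of coverage (H3K9me3, H3K27me3) or 1 peak (the others). A TAD edge within 20 kb counted as near. Shares have 95% Wilson intervals. The functions were tested on simulated bins and peaks. Python 3.11.15, numpy 2.4.6, pandas 2.3.3, scipy 1.17.1 and matplotlib 3.10.9 were used. The bins, lists and rules were chosen with earlier results of these data known. Regions were named by rule: the 6 longest runs, the longest of chromosome 8, the bins of largest difference in signal, H3K9me3 or peaks, and those nearest each threshold; the runs of chromosome 19 and chromosome-wide values were chosen after their values were seen. Genes could not be placed in bins, since no hg19 annotation was used here, so no RNA-seq comparison of the bins was made and no sequence is shown.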

Additional observations from a re-analysis of the deposited data

How the results depend on the processing

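Of 163 values recomputed for 26 results, 125 stayed within 1.5 times the reported count or within the interval of the reported value and 38 moved outside. For mean coverage the interval was a Wilson interval that treats the mean percent as a share of 1551 separate bins. Coverage is no such share and neighbouring bins are not independent, so there the interval is only a yardstick for the size of a move. It does not measure the error of the mean. The order of control and knockout turned only for H3K27me3 (with the margin on signal size, 10.9% and 11.6%, and with the wider peaks) and for CTCF (with the scaled list). The 1551 bins (5.85%) became 775 (3.53%) with the margin on signal size. They made up 5.01% of bins when both replicate columns had to have the sign, 5.54% with centred and scaled columns and 6.74% with each chromosome's median shift removed. With a replicate left out the number was 1537 to 1566.

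With only peaks at least as wide as the median of their list, H3K9me3 covered 15.0% in control and 1.16% in knockout, H3K27me3 covered 9.65% and 9.75%, H3K4me3 covered 0.938% and 2.37%, and knockout H3K27ac covered 1.83%. Control H3K9me3 coverage was 20.6% without chromosome 4 and 14.51% without chromosome 19. With centred and scaled columns, knockout H3K9me3 coverage was 1.74% and control CTCF 5.06 peaks per Mb. With the margin, control H3K27ac coverage was 0.491% and CTCF 4.84 and 5.23 peaks per Mb in control and knockout. Knockout CTCF was 6.23 with both replicate columns required and 4.60 when scaled to the control list. Without chromosome 4 CTCF was 6.94 and 7.54, and without chromosome 19 it was 5.06 in control.

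A stricter call (10 points of coverage or 2 peaks) found H3K9me3 higher in knockout in 2.13% of switching bins (28.2% of all bins) and lower in 41.1% (22.5%). Shares of switching bins, with those of all bins in brackets, were 14.6% (7.44%) higher and 16.2% (15.8%) lower in the case of H3K27me3. H3K27ac gave 25.1% (11.5%) and 1.42% (8.24%), H3K4me3 gave 56.5% (16.7%) and 0.451% (3.86%), and CTCF gave 7.16% (14.3%) and 6.38% (4.56%). With a TAD edge required at the same 20 kb position, 4.96% of run ends had one in control and 5.98% in knockout; within 40 kb the shares were 28.2% and 31.0%. The cause of these moves was not tested beyond the construction of each alternative.

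No paired analysis was possible because the peak and TAD lists are 1 per genotype and the Hi-C signals chose the bins. The RNA-seq fit for genes in the bins, with its DESeq2, filter, block and left-out-replicate alternatives, was not run, since no hg19 annotation was used here. The lists hold no depth or score, so weak and strong peaks count alike.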
